A study of Mus musculus with 6 samples.

Results

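The genes described here encode feedback inhibitors and transcriptional outputs of the ERK pathway. They are 10 of the 41079 genes listed in the deposited tables and were found by symbol. Dusp1, Dusp2, Dusp4, Dusp5 and Dusp6 encode MAP kinase phosphatases, Spry1, Spry2 and Spred1 encode Sprouty and Spred proteins, and Etv4 and Etv5 encode ETS transcription factors. RNA-seq was performed on primary microglia of C57Bl/6N mice aged 1 to 3 days, with 3 control libraries and 3 libraries of stimulated cells. According to the labels, the stimulated cultures received human TGFbeta, human IL34 and CX3CL1 at 100 ng/mL each. The paper describes the same libraries as serum-free DMEM/F12 without additions and as serum-free medium with the 3 cytokines, insulin-transferrin-selenium and cholesterol, in wells with a collagen IV coat. Cells of both groups came from mixed glial flasks of several pooled neonatal brains, had been fed with L-929 conditioned medium, which carries macrophage colony-stimulating factor, and were collected by shaking. According to the paper, these flasks were kept in medium with serum and harvested weeks after isolation. The age given is that of the mice at isolation. The collected cells of both groups also shared a short exposure to serum while they adhered. No library received a single supplement, so the supplements cannot be told apart. The paper calls the libraries biological replicates, the labels do not say whether they came from separate cultures, and p-values measure the spread between these libraries.

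The ERK cascade carries signals from growth factor receptors through RAS, RAF and MEK to the ERK kinases. In microglia the receptor CSF1R, to which IL-34 and macrophage colony-stimulating factor bind, is a main entry to it. Active ERK induces genes that switch the pathway off again. DUSP proteins remove phosphate from MAP kinases, Sprouty proteins act between the receptor and RAF, and SPRED1 brings neurofibromin to the membrane, where it inactivates RAS. ETV4 and ETV5 belong to the PEA3 group of ETS factors, and their transcripts are widely read as an output of ERK activity.

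The counts summed to between 20628148 and 27261839 per library. Scaled with the TMM factors of edgeR, they are given as CPM, which corrects for library size, while levels of different genes are compared as the deposited FPKM, which is corrected for length. Of the 14618 genes with enough counts to test, 29.8% passed the threshold of 0.05 on the adjusted p-value (quasi-likelihood test of edgeR, Benjamini-Hochberg adjustment). In stimulated cells 14.7% were higher and 15.2% lower. When TMM was replaced by library size alone, the median log2 fold change of all genes shifted by -0.13, and 32.3% of the genes called were higher, against 49.1% with TMM. The summed CPM of 8 microglia markers was 7977 to 8606 in control and 12441 to 15940 in stimulated libraries. That of 5 markers of border-associated macrophages was 628 to 692 and 429 to 665, a sum of genes that moved in opposite directions. Mrc1 fell from 330 ± 21.8 to 62.7 ± 5.37 CPM and Clec10a from 1.02 ± 0.42 to 0.079 ± 0.098 CPM, while Siglec1 rose from 328 ± 28.8 to 492 ± 113 CPM (SD, n = 3 each). For other brain cells the sums were 36.9 to 38.6 and 24.9 to 29.8 CPM (7 astrocyte genes), 3.07 to 4.72 and 5.30 to 6.34 CPM (6 neuron genes), 135 to 151 and 164 to 202 CPM (6 oligodendrocyte genes), and 13.1 to 17.6 and 15.5 to 19.0 CPM (5 genes of oligodendrocyte precursors). The 6 fibroblast genes summed to 32.6 to 46.5 CPM in control and 28.9 to 149 CPM in stimulated libraries, with the top value in stimulated library 3. Of the astrocyte genes, Aldh1l1 fell from 16.5 ± 1.47 to 4.64 ± 0.23 CPM (SD, n = 3 each), and the other 6 were not called. Among the neuron genes only Nefl was called, with 0.23 ± 0.056 CPM in control and 1.14 ± 0.31 CPM in stimulated libraries. Only Mbp was called among the oligodendrocyte genes. It made up most of their sum and went from 94.2 ± 2.92 to 119 ± 13.3 CPM (SD, n = 3 each). The 7 genes of endothelial cells and pericytes summed to 81.5 to 96.9 and 274 to 354 CPM, nearly all of it Flt1. Of these 7, Cldn5 and Kcnj8 had no count in 5 of the 6 libraries. The part of these other cells in the results was not tested, and in bulk RNA fewer cells of a type and less RNA per cell cannot be told apart.

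Of the 10 genes, 3 were higher, 4 were lower and 3 did not pass the threshold of 0.05, a share of calls to be read against 29.8% of all genes tested. Dusp4, Dusp6 and Etv4 rose, and Dusp1, Dusp2, Spred1 and Etv5 fell, so that each of the phosphatase and ETS groups held genes that moved in opposite directions. Dusp5, Spry1 and Spry2 were not called. In CPM, every stimulated library was above every control library for 4 of the 10 genes (21.4% of all genes tested) and below for 4 (22.5%), and either way for 43.9% of all genes tested. The median log2 fold change over the 10 genes was 0.052, against 0.0079 over all genes tested. All 10 passed the filter on low counts. Dusp2 had under 10 counts in every stimulated library and passed it through its control libraries. The call of each of the 7 genes held in all 6 fits that left out 1 library.

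The promoters of 4 of these genes are shown because they form pairs of one role whose transcripts moved in opposite directions, the phosphatases Dusp1 and Dusp6 and the ETS factors Etv4 and Etv5. Each sequence is the 250 bases before the start of the canonical transcript of GENCODE M39 on GRCm39, written 5′ to 3′ on the strand of the gene. Capitals mark the cAMP response element TGACGTCA in Dusp1, and in Etv4 and Etv5 the longest run of letters that both windows hold. Dusp6 has no capitals.
Dusp1, chr17:26727494-26727743, minus strand: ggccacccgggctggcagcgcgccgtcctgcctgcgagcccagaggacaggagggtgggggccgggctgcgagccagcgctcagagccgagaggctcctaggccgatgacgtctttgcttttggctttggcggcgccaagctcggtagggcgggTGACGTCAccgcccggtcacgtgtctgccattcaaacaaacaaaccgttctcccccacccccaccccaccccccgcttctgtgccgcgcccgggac
Dusp6, chr10:99098818-99099067, plus strand: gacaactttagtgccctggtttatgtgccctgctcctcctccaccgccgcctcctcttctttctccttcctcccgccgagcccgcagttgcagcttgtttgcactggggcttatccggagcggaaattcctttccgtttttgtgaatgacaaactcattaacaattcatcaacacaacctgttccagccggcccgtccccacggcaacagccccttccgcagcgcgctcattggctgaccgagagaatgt
Etv4, chr11:101676198-101676447, minus strand: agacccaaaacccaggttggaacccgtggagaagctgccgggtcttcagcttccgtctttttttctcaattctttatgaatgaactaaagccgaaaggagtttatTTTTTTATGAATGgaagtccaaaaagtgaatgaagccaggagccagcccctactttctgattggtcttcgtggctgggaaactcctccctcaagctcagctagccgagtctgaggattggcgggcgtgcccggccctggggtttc
Etv5, chr16:22258484-22258733, minus strand: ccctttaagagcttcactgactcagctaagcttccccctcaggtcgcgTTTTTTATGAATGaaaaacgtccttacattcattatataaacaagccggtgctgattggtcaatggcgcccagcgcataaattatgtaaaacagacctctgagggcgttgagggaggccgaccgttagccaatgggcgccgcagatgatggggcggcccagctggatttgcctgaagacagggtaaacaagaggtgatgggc

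Both strands of the 10 windows were searched for 7 motifs, and shares are given over 21747 windows of protein-coding genes. Dusp1 alone held the full cAMP response element, which was present in 1.69% of all windows. The AP-1 motif TGANTCA (6.18% of all windows) and the TATA motif TATAAA (11.9%) were found in Etv5 alone. They begin 233 and 167 bases before the start, so the TATA match is far from it. The CArG box, the element bound by serum response factor, lay in Dusp5 alone, with 2 matches beginning 38 and 28 bases before the start, against 1.4% of all windows. The short SMAD motif CAGAC, found in 41.3% of all windows, was in Dusp1, Dusp2, Etv4 and Etv5. GGGCGG, the GC box, was in 7 of the 10 windows and in 36.3% of all. Of these 7, Dusp1, Dusp2, Dusp4, Dusp5, Spry2 and Spred1 had 62.8% to 70% G and C letters, and Etv5 had 51.2%. The median over all windows was 53.2%, and the part of this in the GC box share was not tested. The ETS motif in the strict form CCGGAA was in none of the 10 and in 12.4% of all. Shorter forms of the ETS motif were not searched for, so their absence cannot be read from this. Neighbouring GC boxes in Dusp4, which begin 69 and 64 bases before the start, overlap by their end letter, and matches of different motifs did not overlap. The run of 13 letters shared by Etv4 and Etv5, TTTTTTATGAATG, begins 145 bases before the start of Etv4 and 202 bases before that of Etv5. Of the 21747 windows 3 held it, counting those of Etv4 and Etv5 themselves. A shorter part of the run, TTTTATGAATG, was also in the window of Dusp4. The run was taken as the longest that the Etv4 and Etv5 windows share, after both sequences had been seen. The count of windows that hold it is therefore no evidence about this pair. These matches describe letters, and no binding was measured.

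Per length, the order of the 10 transcripts changed between the conditions. In control libraries Spred1 stood first with 30.6 ± 3.75 FPKM (SD, n = 3), followed by Dusp6 with 22.8 ± 0.33, Etv5 with 19.3 ± 1.56 and Dusp1 with 11.1 ± 0.73 FPKM. Dusp4 (3.67 FPKM), Dusp5 (1.92), Spry2 (1.85), Dusp2 (0.72), Spry1 (0.38) and Etv4 (0.25) came after them. Dusp5 overlapped with Spry2, and Spry1 with Etv4, and the other neighbours in this order did not overlap. In stimulated libraries Dusp6 stood first with 38.3 ± 2.78 FPKM (SD, n = 3), Etv4 had moved above Spry1, and Dusp2 came last with 0.14 ± 0.026 FPKM. Here Spred1 overlapped with Etv5, Dusp4 with Dusp1, and Spry2 with Dusp5.

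**Figure D1:**
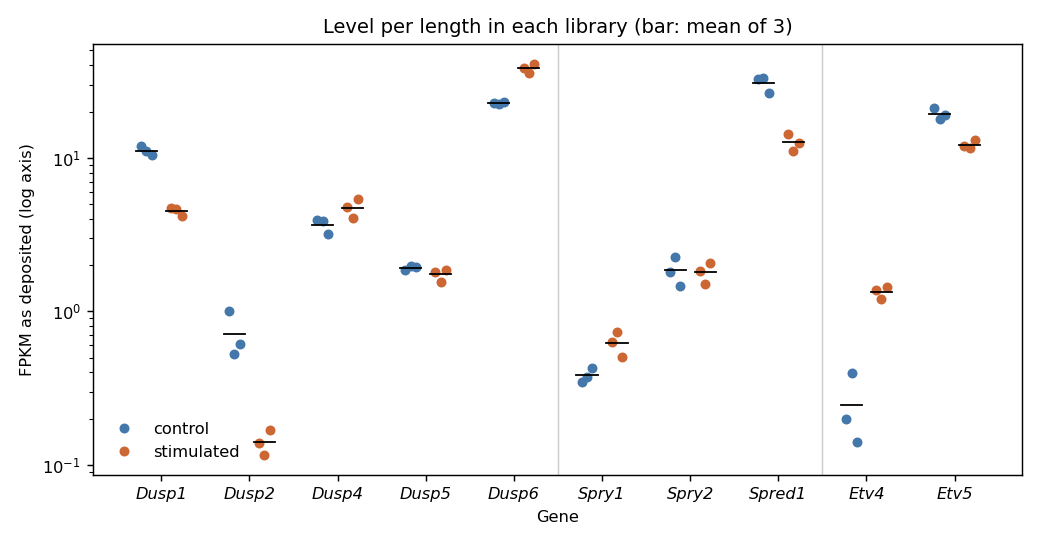
Deposited FPKM of the 10 genes in each of the 3 control (blue) and 3 stimulated (orange) libraries, on a log axis, with the mean of each group as a bar and vertical lines between phosphatases, Sprouty and Spred genes, and ETS factors. Dusp6, at 38.3 FPKM, leads the stimulated libraries and Spred1, at 30.6 FPKM, the control libraries, and only Dusp5 and Spry2 have points of both colours at the same height.

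Among the phosphatases, Dusp6 encodes a cytoplasmic enzyme that acts on ERK and little on other MAP kinases, and it is a standard readout of ERK activity. Dusp6, on chromosome 10 of GRCm39 from 99086564 to 99103361, had 70.7, 69.3 and 76.2 CPM in control libraries 1 to 3 and 129, 130 and 141 CPM in stimulated libraries 1 to 3. The lowest stimulated library lay well above the highest control library. Its log2 fold change was 0.89 ± 0.084 (SE), a 1.85-fold rise (adjusted p = 3.1e-05, edgeR). Over all genes tested, 14.8% had a larger change in either direction. Exons of Dusp6 share 94 bases with those of Gm34921 on the other strand, which had a mean of 231 counts against 2347 for Dusp6 and a log2 fold change of 1.02. Whether the counting used strand is not stated.

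Dusp1 encodes a nuclear phosphatase, induced within minutes by stress and by glucocorticoids, that acts on p38 and JNK as well as ERK and restrains inflammatory cytokine expression in macrophages. Dusp1, on chromosome 17 from 26724564 to 26781102, went from 22.3, 20.6 and 20.8 CPM in control to 9.61, 10.2 and 8.66 CPM in stimulated libraries. The groups were far apart and each was tight. The log2 fold change was -1.16 ± 0.11 (SE), a 2.23-fold fall (adjusted p = 3.0e-05, edgeR). Exons of Dusp1 share 38 bases with those of Ergic1 on the other strand, a gene with a mean of 1789 counts against 367 for Dusp1 and a log2 fold change of -0.35.

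Dusp2 encodes a nuclear phosphatase of activated leukocytes that acts on ERK and p38. Dusp2, on chromosome 2 from 127177957 to 127180296, had 36, 20 and 28 counts in control libraries 1 to 3 and 5, 5 and 6 in stimulated libraries 1 to 3. Every stimulated library was below every control library, but the counts were low throughout. The log2 fold change of -2.18 had the largest standard error of the 10 genes, 0.42 (adjusted p = 0.0032, edgeR).

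Dusp4 encodes a nuclear phosphatase whose transcript is induced by ERK. Dusp4, on chromosome 8 from 35274442 to 35287048, had 22.2, 21.9 and 19.1 CPM in control and 29.3, 27.0 and 33.6 CPM in stimulated libraries. The groups did not overlap, although the gap between them was smaller than the range of the stimulated libraries. The log2 fold change was 0.51 ± 0.11 (SE, adjusted p = 0.0072, edgeR). With library size alone it was 0.38 and no longer past the threshold (adjusted p = 0.061, edgeR), and with limma on log2(FPKM + 1) it was 0.29 (adjusted p = 0.18).

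Dusp5, on chromosome 19 from 53517532 to 53530862, encodes a nuclear phosphatase that binds ERK in particular. It had 3.24, 3.43 and 3.62 CPM in control and 3.46, 3.19 and 3.63 CPM in stimulated libraries. Both groups covered the same range. The log2 fold change was -0.0034 ± 0.18 (SE, adjusted p = 0.99, edgeR), so at this depth a change of the size of that of Dusp4 would be less than 3 standard errors.

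Summed over the 5 phosphatases, the level was 40.2 ± 1.13 FPKM in control and 49.4 ± 3.40 FPKM in stimulated libraries (SD, n = 3 each). Dusp6 took 56.7% ± 1.97 of this sum in control and 77.5% ± 0.54 in stimulated libraries, while the part of Dusp1 went from 27.6% ± 1.07 to 9.17% ± 1.12. The share of Dusp4 was 9.12% ± 0.90 and 9.55% ± 0.68. Sums of FPKM, here and for the other groups below, are not scaled with TMM. In limma on log2(FPKM + 1), the median log2 fold change of all genes shifted by -0.13 against the TMM fit. Within a library, where scaling has no effect, the ratio of Dusp1 to Dusp6 was 4.13-fold lower in stimulated libraries, that of Dusp2 to Dusp4 6.36-fold lower, and that of Dusp5 to Dusp6 1.85-fold lower. In each of these pairs no stimulated library reached a control library. Over the 5 pairs of genes compared, each of these ratios gave p = 0.1 in an exact permutation test (two-sided), which is the smallest value that 3 libraries against 3 allow, and 0.125 after Benjamini-Hochberg adjustment.

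**Figure D2:**
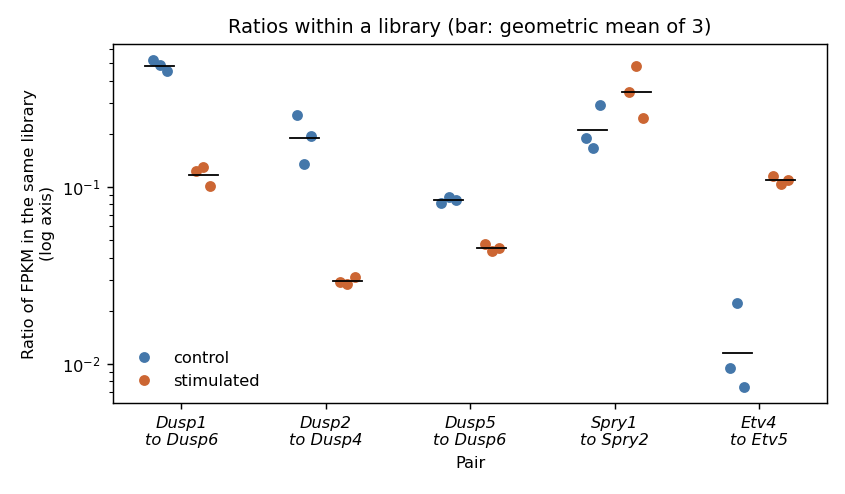
Ratio of the FPKM of the first gene to that of the second in the same library, on a log axis, for 5 pairs in control (blue) and stimulated (orange) libraries, with the geometric mean as a bar. Points of the groups stand apart in 4 pairs and mix in Spry1 to Spry2, and Etv4 to Etv5 moves the farthest, 9.44-fold upward.

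Of the Sprouty and Spred genes, Spred1 was the abundant one and fell. Spred1, on chromosome 2 from 116951524 to 117018277, had 221, 225 and 191 CPM in control and 106, 89.2 and 94.3 CPM in stimulated libraries. Control library 3 was the lowest of its group and still above every stimulated library. The log2 fold change was -1.14 ± 0.10 (SE), a 2.2-fold fall (adjusted p = 2.0e-05, edgeR).

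Spry1 and Spry2 encode inhibitors of receptor tyrosine kinase signalling that are tyrosine phosphorylated on stimulation, and both were low. Spry1, on chromosome 3 from 37693897 to 37698755, had 19, 22 and 30 counts in control and 35, 49 and 28 counts in stimulated libraries. In CPM, which corrects for depth, these were 0.83, 0.90 and 1.10 against 1.66, 2.09 and 1.35, and the groups did not overlap. Its log2 fold change of 0.85 had a standard error of 0.30 (adjusted p = 0.058), and its adjusted p-value was 0.036 among genes with at least 10 counts in every library (edgeR). Exons of Spry1 share 909 bases with those of Gm42922 on the other strand, which had a mean of 4.5 counts against 30.5 for Spry1. Spry2, on chromosome 14 from 106128766 to 106136446, had 4.5, 5.55 and 3.88 CPM in control and 4.92, 4.43 and 5.66 CPM in stimulated libraries. The ranges overlapped, and the log2 fold change of 0.11 (SE 0.19, edgeR adjusted p = 0.72) was -0.023 with library size alone.

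Without TMM scaling, the summed level of the 3 Sprouty and Spred genes was 32.8 ± 4.06 FPKM in control and 15.1 ± 1.70 FPKM in stimulated libraries (SD, n = 3 each). Spred1 took 93.2% ± 0.54 and 83.8% ± 1.31 of it. The ratio of Spry1 to Spry2 within a library overlapped between the conditions (p = 0.2, two-sided exact permutation test, and 0.2 after Benjamini-Hochberg adjustment over the 5 pairs).

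The ETS factors moved apart. Etv4, on chromosome 11 from 101660568 to 101676197, had 20, 42 and 18 counts in control and 138, 145 and 143 counts in stimulated libraries. Control library 2 held about the double of the other control libraries and remained far below the stimulated ones. The log2 fold change was 2.60 ± 0.30 (SE), a 6.05-fold rise (adjusted p = 0.00012, edgeR), and 1.79% of all genes tested had a larger change. Without control library 2 the log2 fold change was 3.09. Etv5, on chromosome 16 from 22200052 to 22259662, went from 99.8, 84.7 and 96.5 CPM in control to 61.8, 64.9 and 68.2 CPM in stimulated libraries. No library of one group reached the other, and the log2 fold change was -0.53 ± 0.091 (SE, adjusted p = 0.0016, edgeR).

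Etv5 remained the main ETS transcript of the pair, at 98.7% ± 0.77 of their summed FPKM in control and 90.1% ± 0.47 in stimulated libraries (SD, n = 3 each), and Etv4 went from 1.28% to 9.89%. Their sum, also without TMM scaling, was 19.6 ± 1.48 FPKM in control and 13.5 ± 0.81 FPKM in stimulated libraries. The ratio of Etv4 to Etv5 was 0.0095, 0.022 and 0.0074 in control libraries and 0.115, 0.104 and 0.11 in stimulated libraries, a 9.44-fold difference (p = 0.1, exact permutation test, two-sided, with no smaller value possible here). Whether the run of letters shared by their windows has a part in this was not tested.

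**Figure D3:**
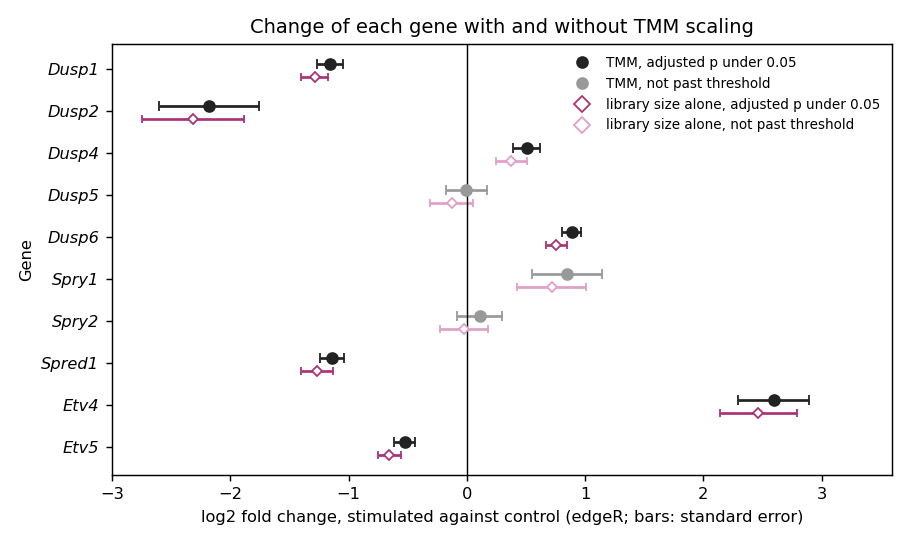
Log2 fold change of each gene in stimulated against control libraries from edgeR, with standard errors, scaled by TMM (circles) or by library size alone (diamonds), in pale colour where the adjusted p-value was not under 0.05. All values shift to the left with library size alone, and Dusp4, at 0.38, is the one gene called with TMM that loses its call.

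The other MAP kinase phosphatases, a list of 5 genes, had 1 gene higher and 1 lower, beside 14.7% and 15.2% of all genes tested. Dusp7, a cytoplasmic ERK phosphatase like Dusp6, went the other way from it. It fell from 122 ± 5.54 to 85.2 ± 5.27 CPM (SD, n = 3 each), for a log2 change of -0.51 (adjusted p = 0.0012, edgeR). Dusp9, the third ERK phosphatase of the cytoplasm, was near the limit of detection, with 0.84 ± 0.17 CPM in control and 1.60 ± 0.24 CPM in stimulated libraries (SD, n = 3 each). Its adjusted p-value was 0.042, and 0.062 to 0.136 in the 6 fits that left out 1 library (edgeR). Dusp8, Dusp10 and Dusp16, which prefer p38 and JNK, had log2 fold changes of -0.75, 0.20 and 0.034 and were not called, although Dusp8 had an adjusted p-value of 0.038 without control library 3 (edgeR).

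Of the 4 other Sprouty and Spred genes, 2 were higher and none was lower among 3 tested, beside 14.7% and 15.2% of all genes. Spred3 rose from 4.49 ± 0.73 to 8.52 ± 0.76 CPM (SD, n = 3 each), for a log2 change of 0.92 ± 0.16 (SE). Spred2 had a log2 fold change of 0.30 (adjusted p = 0.028), and its adjusted p-value was 0.086 to 0.11 without control library 1, 2 or 3 or stimulated library 3 (edgeR). Spry4 had a log2 fold change of 0.27 ± 0.39 (SE), and Spry3 had 0 counts in all libraries, which allows up to 3 counts in each.

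In the list of 16 genes of the RAS-RAF-MEK-ERK core, 3 were higher and 3 lower, beside 14.7% and 15.2% of all genes tested. The remaining 10 were not called. Mapk3, which encodes ERK1, rose from 233 ± 15.6 to 367 ± 43.6 CPM (SD, n = 3 each), for a log2 change of 0.66 ± 0.11 (SE, adjusted p = 0.0010, edgeR). Nf1, which encodes the neurofibromin that SPRED1 recruits, had a log2 fold change of 0.75 (adjusted p = 0.014, and 0.063 without control library 3, edgeR). Braf was higher (0.57), but its adjusted p-value was 0.087 without control library 1 and 0.085 without control library 3 (edgeR). Stimulated library 1 was the highest for Nf1 and Braf, with 82.3 and 45.4 CPM. Stimulated libraries 2 and 3 had 48.8 and 54.3 CPM for Nf1, and 28.7 and 34.2 CPM for Braf. Rps6ka3, a kinase downstream of ERK, and Rasa1, a RAS inactivator, fell by 0.51 and 0.45 on the log2 scale. Araf had -0.28, and its adjusted p-value was 0.054 to 0.115 without any 1 of the control libraries or stimulated library 3 (edgeR).

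Among 12 genes of signal entry, 2 were higher and 3 were lower, beside 14.7% and 15.2% of all genes tested. Errfi1, an ERK-induced inhibitor of the EGF receptor family, doubled from 10.1 ± 0.78 to 20.8 ± 0.62 CPM (SD, n = 3 each), for a log2 change of 1.04 ± 0.11 (SE). Grb2, the adaptor that links receptors to RAS activation and binds Sprouty proteins, fell from 273 ± 15.4 to 180 ± 19.2 CPM (SD, n = 3 each), for a log2 change of -0.61 ± 0.10 (SE). Csf1r had a log2 fold change of -0.39 (adjusted p = 0.011, and 0.052 without control library 1, edgeR). Shc1 (0.31) was not past the threshold without control library 1 or 3, with adjusted p-values of 0.058 and 0.052, and Ptpn11 (-0.30) was not without any 1 of 5 libraries, all but stimulated library 1, at 0.058 to 0.154 (edgeR).

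In the p38 and JNK list, 2 of 10 genes were lower and none was higher, beside 15.2% and 14.7% of all genes tested. Mapk14, which encodes p38 alpha, a substrate of DUSP1, fell from 139 ± 4.0 to 89.7 ± 1.66 CPM (SD, n = 3 each), for a log2 change of -0.63. Its downstream kinase Mapkapk2 fell from 514 ± 8.15 to 283 ± 17.5 CPM (SD, n = 3 each), for a log2 change of -0.86. The highest value in the list was 0.23 for Map3k7, which was not called.

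In the list of other genes that ERK induces, 4 were higher and 4 were lower among 12 tested, beside 14.7% and 15.2% of all genes tested. Epha2, a receptor tyrosine kinase, rose from 2.70 ± 0.64 to 8.62 ± 0.58 CPM (SD, n = 3 each), for a log2 change of 1.68 ± 0.19 (SE). Etv1, the remaining gene of the PEA3 group, had a log2 fold change of 0.55 (adjusted p = 0.0050, edgeR) and was not past the threshold with library size alone (log2 fold change 0.43, adjusted p = 0.0504), nor with limma on log2(FPKM + 1) (0.27, adjusted p = 0.21). Egr1, an immediate early zinc finger factor, had 0.51. Phlda1 had 0.44 (adjusted p = 0.017), but its adjusted p-value was 0.051 to 0.078 without control library 1 or 2 or stimulated library 2 or 3 (edgeR). Ccnd1, which encodes cyclin D1, fell from 261 ± 18.1 to 126 ± 5.48 CPM (SD, n = 3 each), for a log2 change of -1.05. Fos had -0.97 and Myc -0.60. Egr3 had -0.84, and its adjusted p-value was 0.056 to 0.091 in the fits without any 1 of 5 libraries, all but stimulated library 3 (edgeR).

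Over the 6 lists together, 12 of 58 tested genes were higher and 13 were lower, beside 14.7% and 15.2% of all genes tested, with a median log2 fold change of -0.013. With library size alone, 5 were higher and 17 were lower, where 1513 and 3168 of all 14618 genes were. The calls of 15 of the 25 genes held in all 6 fits that left out 1 library.

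**Figure D4:**
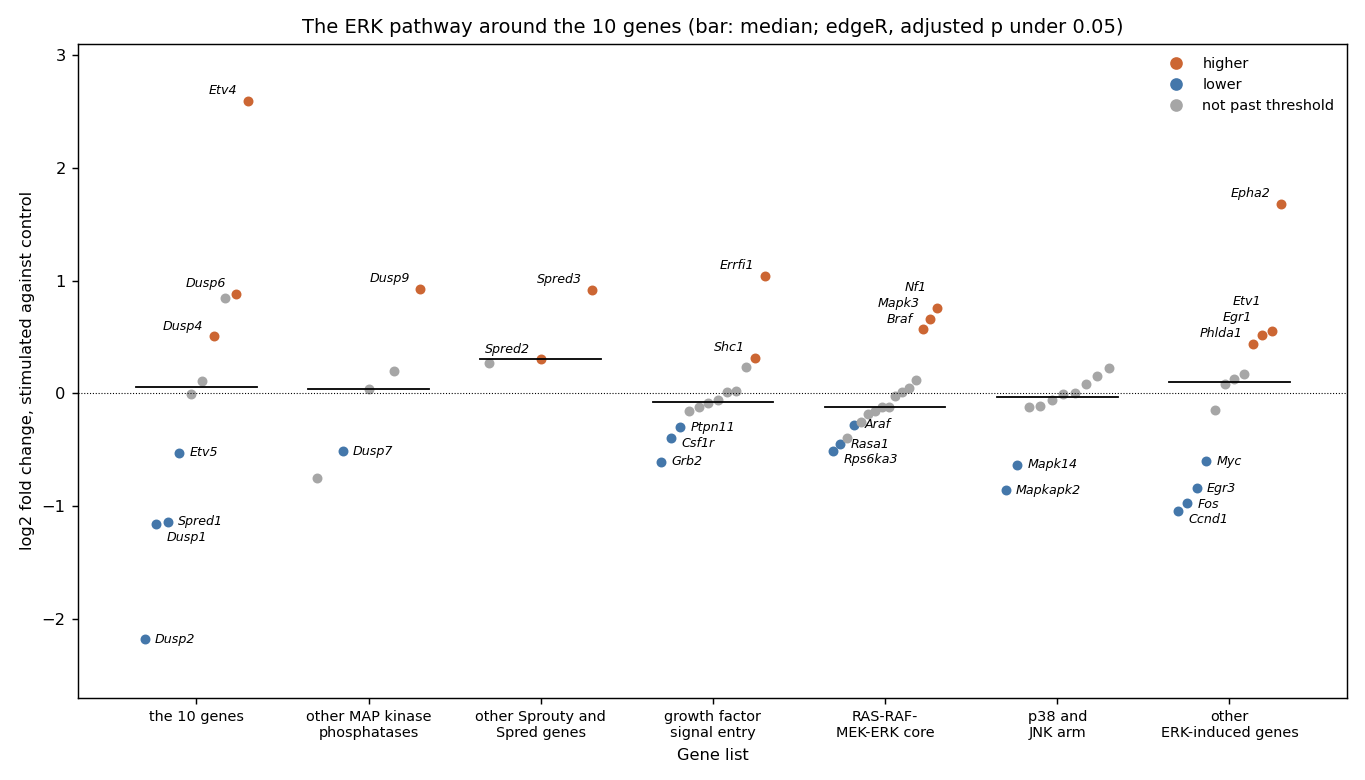
Log2 fold change in stimulated against control libraries of the 10 genes and of the tested genes of 6 lists of the pathway, with genes past an adjusted p-value of 0.05 in orange (higher) or blue (lower) and the median of each list as a bar. The 10 genes spread from -2.18 to 2.60, and the medians of all lists lie between -0.12 and 0.30.

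The genes most like a member across the 6 libraries were sought for Dusp6, Spry2 and Etv5 by Pearson's r of log2(CPM + 1). The points are 2 conditions of 3 libraries, so that a tight step between conditions in the same direction scores high, whatever its size. The value of r is given as a description. For Dusp6 they were Ch25h, which encodes cholesterol 25-hydroxylase, Susd1 and Pdia4, an endoplasmic reticulum chaperone. Their r was 0.998, 0.998 and 0.997, and 112 of 9836 genes had r of at least 0.99. Ch25h, Susd1 and Pdia4 rose by 2.74, 0.81 and 0.74 on the log2 scale, beside 0.89 for Dusp6. For Etv5 they were Pygb, the brain form of glycogen phosphorylase, Map3k11, a kinase upstream of JNK, and Fam219a, with r of 0.997, 0.996 and 0.994. Pygb, Map3k11 and Fam219a fell by 0.47, 0.48 and 0.44 on the log2 scale. Spry2, whose libraries of the 2 groups overlapped, was most like Synj2bp (0.995), Vps26b (0.991) and Usp44 (0.986), none of which was called.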

How the data were processed

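RNA was measured by paired-end RNA-seq in 3 control and 3 stimulated libraries. The authors aligned the reads with HISAT2 (mm39), obtained counts per gene from featureCounts, and deposited these raw counts. They also deposited FPKM values, which equal the counts after division by 1 factor per gene and 1 per library. Versions, annotation, strandedness and the treatment of multiply assigned reads are not given in the sources used here. The members and lists were chosen with earlier results of these data known.

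The test used edgeR 4.0.16 under R 4.3.3 (filterByExpr, TMM, glmQLFit and glmQLFTest, Benjamini-Hochberg adjustment over 14618 genes, threshold 0.05), since the paper names no test for these libraries. The standard error is the log2 fold change divided by the square root of F. Depth was 20628148 to 27261839 counts, and standard errors were largest for Dusp2, Etv4 and Spry1. The limit of counts given for Spry3 covers counting error only, while the standard errors also hold the spread between libraries. Pairs of libraries of one group differed by more than sampling noise, so none was a copy. The chi-square of the counts per degree of freedom was 10.8 to 26.3 between control libraries. It was 79.9 and 46.8 for stimulated library 1 against stimulated libraries 2 and 3, and 14.7 between stimulated libraries 2 and 3. Same-numbered libraries did not deviate together in every pair (r of 0.401, -0.034 and 0.237). Named genes are the 10 members, the extremes, paralogues and direct partners in 6 lists, and the 3 genes most like Dusp6, Spry2 and Etv5 with a mean of at least 5 CPM. Rasa1, Braf, Araf, Csf1r, Shc1 and Ptpn11, and Egr1, Egr3, Fos, Myc and Phlda1 were named after their values were seen. Alternatives used DESeq2 1.42.0 and limma 3.58.1: other scaling factors, other filters on low counts, a replicate block, each library left out, and FPKM with pseudocounts of 1 and 0.1. The edgeR, DESeq2 and limma fits were run on simulated counts with far fewer changed genes than were called here, as many up as down. The ratios, the likeness of genes and the motif search were not simulated. Sequences are those of GRCm39 with GENCODE M39. The values of 1 listed gene are not reported here.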

Additional observations from a re-analysis of the deposited data

How the results depend on the processing

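Of 146 refits of the 10 genes, 132 kept direction and side of the threshold. Dusp4 was weaker in 4 (the scaling by library size alone, and 3 limma fits of FPKM) and Spry1 stronger in 1. Without a call in any fit, Dusp5 turned positive with relative log expression factors (0.00022), at least 10 counts in every library (0.0019), or without control replicate 3 or stimulated replicate 2, with a range of -0.047 to 0.037 over the fits that left out 1 library. Spry2 turned negative with library size alone (-0.023), in limma fits of log2(FPKM + 1) (-0.017, also for a mean FPKM of at least 1) and log2(FPKM + 0.1) (-0.022), with a range of -0.014 to 0.25 without 1 library. Dusp16 turned negative with library size alone (-0.085) and the same limma fits (-0.083, -0.083 and -0.12), with a range of -0.13 to 0.16 without 1 library. Of the 10 genes 3 were higher, against 2 with library size alone and with either pseudocount in limma, where Dusp4 lost its call, and 1 with limma for a mean FPKM of at least 1, a filter that removed Etv4 untested. List genes that were higher numbered 12, against 5 when scaled by library size alone, 6, 5 and 6 in limma fits of log2(FPKM + 1), log2(FPKM + 0.1) and a mean FPKM of at least 1, and 7 to 11 without 1 library. Genes that were higher numbered 2142, against 1307, 1312 and 1176 with these limma fits. With the replicate block, 2401 genes were higher and 2523 lower, 3 and 4 of the 10 genes among them. The numbers pair no samples by the labels, and not every library correlated best with its own number. Log2 ratios of summed markers in FPKM were 0.63 for microglia (0.79 in CPM), -0.50 for border-associated macrophages (-0.25), -0.69 for astrocytes (-0.50), 0.15 for oligodendrocytes (0.32) and 1.6 for endothelial cells and pericytes (1.8). For neurons they were 0.73 (0.60), for oligodendrocyte precursors 0.218 (0.217) and for fibroblasts 0.78 (0.91). FPKM divides counts by 1 factor per gene and 1 per library, and the part of each in these differences was not tested. A pseudocount of 1 understates low genes, and Etv4 was 0.91 and Dusp2 -0.58 with it.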
